A study of Mus musculus with 6 samples.

Results

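Genes of the integrated stress response and of amino acid supply were examined in embryonic mouse hearts that lacked filamin C. The 40 genes were listed by name. They comprised ATF4 and its partner regulators, enzymes of serine, one-carbon, asparagine, proline and cysteine synthesis, and the mitochondrial enzyme gene Pck2. Amino acid transporters, 3 secreted or surface products, and cytosolic tRNA synthetases made up the rest. They were taken from 54356 genes that had transcripts in the quantified libraries, and 39 of the 40 had enough counts to be tested. The data were 6 poly(A) RNA-seq libraries of E9.5 hearts on a C57BL/6 background, 3 from FlncgKO embryos and 3 from littermate controls. The global knockout came from a cross of floxed Flnc mice to Sox2Cre mice. Recombination removed exons 9 to 13, and the deletion was not limited to cardiomyocytes. The controls carried only the genotype label control. The tissue was labelled whole heart, the methods named hearts or isolated ventricles, and the number of hearts per library was not given. The p-values below therefore measure only the spread between these libraries.

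Total estimated counts ranged from 19208859 to 23123255 per library, and 15624 to 16185 genes reached at least 10 counts. Flnc itself was at 127, 111 and 240 CPM (counts scaled to library size) in the FlncgKO libraries, against 844, 623 and 746 CPM in the control libraries, with a log2 fold change of -2.21 (SE 0.35). All FlncgKO libraries were below all control libraries for the targeted gene, and the counts of Flnc also cover exons outside the deletion. Of 16048 genes tested with edgeR's quasi-likelihood test, 170 were higher and 40 lower in FlncgKO hearts at a Benjamini-Hochberg adjusted p under 0.05. Flnc itself was not among the 40, with an adjusted p of 0.066 in edgeR and 9.99e-07 in a second test, DESeq2. The 10 cardiomyocyte markers, such as Tnnt2 and Myh6, summed to between 33640 and 39650 CPM in FlncgKO libraries and between 37080 and 41830 CPM in control libraries, which matches the heart label. In RNA from whole tissue, more cells that express a gene and more RNA per cell cannot be told apart.

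The integrated stress response is a common answer of cells to several kinds of strain. Each of 4 kinases, PERK, GCN2, PKR and HRI, senses a different insult and phosphorylates the alpha subunit of the translation initiation factor eIF2. General translation then slows, while the mRNA of the transcription factor ATF4 is translated more. ATF4 pairs with C/EBP proteins on composite elements in DNA and raises genes for amino acid import, amino acid synthesis and tRNA charging, together with feedback and cell death regulators such as CHOP. Much of ATF4's control is at translation, which mRNA levels do not measure. In the heart the pathway is best known from mitochondrial disease models, in which ATF4 targets of serine and one-carbon metabolism rise.

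Nearly all of the listed genes had higher values in FlncgKO hearts, by amounts that ranged from a few percent for Psph to over 20-fold for Chac1. Of the 39 tested members, 38 had a positive log2 fold change, where 51.6% of all genes tested did, and their median log2 fold change was 0.56, beside 0.01 for all genes. In 32 members every FlncgKO library was above every control library, a pattern found in 15.7% of all genes, and in no member was the order the opposite, a pattern found in 14.1% of all genes. Chac1, Slc7a3, Trib3, Stc2 and Vldlr differed by more than 4-fold and 9 members by more than 2-fold, a change upward that 3.56% of all genes reached. The members and the comparison lists were chosen with earlier results of these data known. These shares and the contrasts between lists below are therefore descriptive and do not test the list.

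How many members passed a test depended on the tool. With edgeR, 1 member, Shmt2, was higher at an adjusted p under 0.05, a share to be read against 1.06% of all genes, and no member was lower, against 0.249% of all genes. A further 19 members lay between an adjusted p of 0.05 and 0.1, so that 20 were under 0.1, where 5.27% of all genes were higher at that level. At an unadjusted edgeR p under 0.05, 30 members were higher (13.3% of all genes) and 0 were lower (8.84%). With DESeq2, the tool the study used, 26 members were higher (6.19% of all genes) and 0 lower (2.26%). Of those 26, 13 were called by DESeq2 whichever of the 6 libraries was left out: Atf4, Chac1, Trib3, Sesn2, Shmt2, Mthfd2, Mthfd1l, Slc7a1, Slc7a3, Slc7a5, Slc3a2, Stc2 and Vldlr. With 3 libraries against 3, an exact permutation test cannot go below p = 0.1. Each p given here for a single gene therefore comes from the fit across all genes, and only ratios of 2 genes have an exact permutation p.

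**Figure D1:**
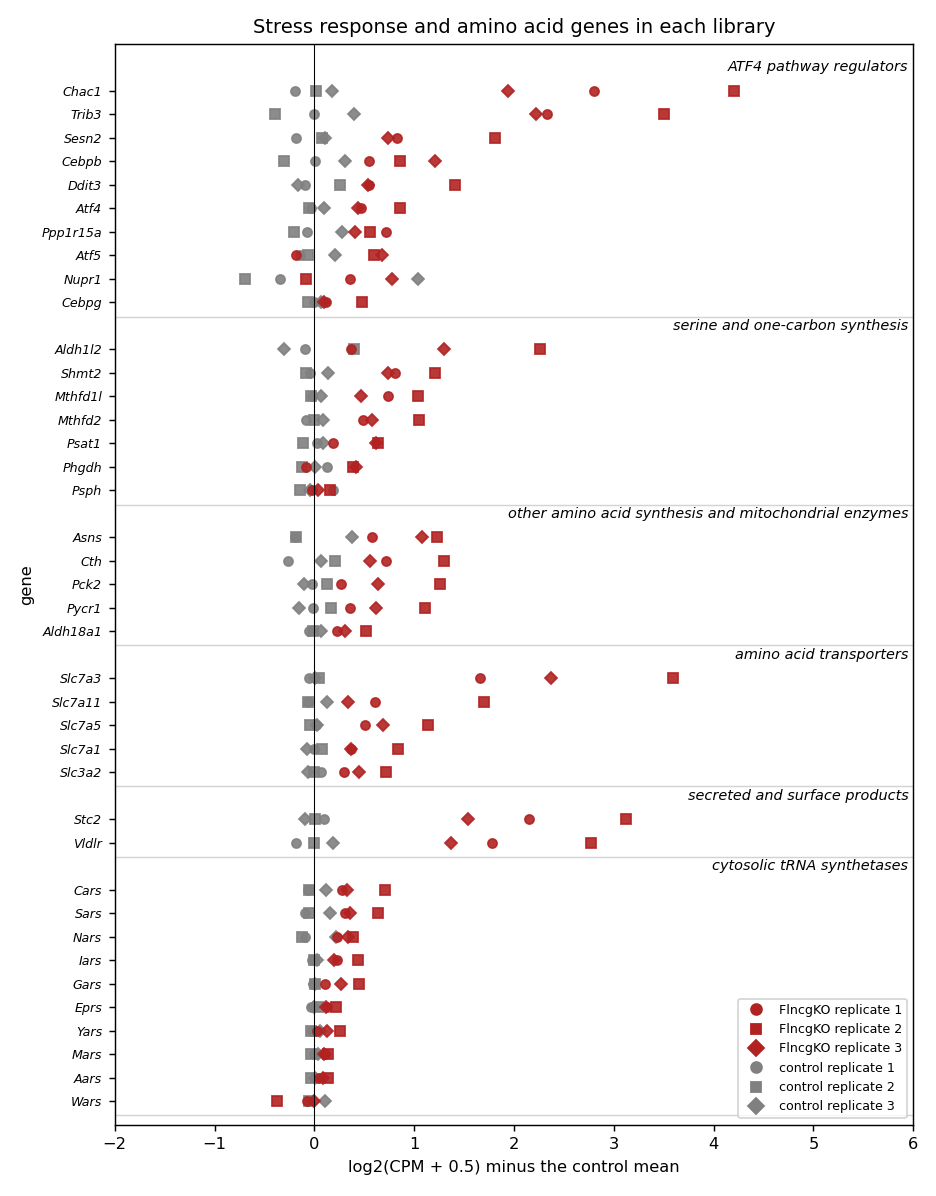
Each point is one library's log2(CPM + 0.5) for one gene minus the mean of the 3 control libraries, with FlncgKO libraries in red, control libraries in grey, and genes grouped by role. FlncgKO replicate 2 (red squares) lies farthest right among the FlncgKO libraries for 33 of the 39 genes, and the control points stay near 0 for nearly every gene.

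The regulators of the pathway were all positive, with a median log2 fold change of 0.76. None of the 10 passed edgeR's adjusted threshold, and 6 were called higher by DESeq2 (6.19% of all genes). Atf4, the transcription factor at the centre of the response, was at 192, 251 and 189 CPM in FlncgKO hearts, against 136, 133 and 148 CPM in control hearts. The groups did not overlap, and FlncgKO replicate 2 stood above the other libraries. The log2 fold change of Atf4 was 0.60 (SE 0.12), with an edgeR adjusted p of 0.063 and a DESeq2 adjusted p of 3.33e-05. Nearly all of its signal was on one coding transcript, Atf4-201, which had 181, 245 and 177 TPM (abundance scaled to transcript length and library) in FlncgKO libraries and 127, 122 and 136 TPM in control libraries. The eIF2 alpha subunit gene Eif2s1, by contrast, was at 143, 131 and 138 CPM in FlncgKO and 136, 142 and 149 CPM in control hearts (log2 fold change -0.05, edgeR adjusted p 0.67).

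Chac1, which encodes an enzyme that breaks down glutathione and is among the best known ATF4 target genes, had the largest fold difference of the members. It was at 4.96, 13.9 and 2.5 CPM in FlncgKO hearts, against 0.183, 0.290 and 0.386 CPM in control hearts. Its control libraries were close to silent, with 4 counts in the lowest, and each FlncgKO library was several times above the highest of them. The log2 fold change was 4.62 (SE 0.80, a 24.6-fold difference), with an adjusted p of 0.062 in edgeR and 5.85e-10 in DESeq2, and it was 3.68 without FlncgKO replicate 2. Trib3, a pseudokinase that ATF4 and CHOP induce and that feeds back on ATF4, was at 21.4, 48.8 and 19.7 CPM in FlncgKO hearts, against 3.84, 2.80 and 5.22 CPM in control hearts. Its log2 fold change was 2.92 (SE 0.48, 7.58-fold), with an adjusted p of 0.064 in edgeR and 5.15e-14 in DESeq2. Both genes were highest in FlncgKO replicate 2, at more than 2 times the level of the other 2 FlncgKO libraries.

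The DNA around the start site of both genes holds the letters TGATGNAA, a core of the C/EBP-ATF composite element through which ATF4 is known to bind. The windows are given from RefSeq (GRCm38.p6), written in the direction of the motif, 30 bases each, with the 8 matching bases in capitals. In Chac1 the match is 193 bases before the annotated start site, at chr2:119351038-119351067, on the strand opposite to the gene. In Trib3 it is 15 bases into the first exon, at chr2:152344028-152344057, also on the opposite strand.
Chac1: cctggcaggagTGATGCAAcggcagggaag
Trib3: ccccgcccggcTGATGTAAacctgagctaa

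The 250 bases before the annotated start site of Chac1, chr2:119350992-119351241 on the plus strand, are given to show where this match lies. They are written along the gene, so that the match in capitals appears as its reverse complement.
Chac1 promoter: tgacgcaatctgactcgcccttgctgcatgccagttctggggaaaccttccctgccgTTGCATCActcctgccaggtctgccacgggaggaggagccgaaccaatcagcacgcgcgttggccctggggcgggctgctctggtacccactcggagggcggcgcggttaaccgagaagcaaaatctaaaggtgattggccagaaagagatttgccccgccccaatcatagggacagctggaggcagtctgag

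Ddit3, which encodes the cell death regulator CHOP, was at 11, 20.4 and 10.9 CPM in FlncgKO hearts, against 6.86, 8.88 and 6.52 CPM in control hearts. The log2 fold change was 0.93 (SE 0.28), with an adjusted p of 0.13 in edgeR and 0.017 in DESeq2. The difference was uneven over its transcripts. The coding transcript Ddit3-201 had 14.4, 30.8 and 14.1 TPM in FlncgKO libraries, against 6.56, 8.62 and 7.81 TPM in control libraries. A second transcript annotated as coding, Ddit3-203, had 3.59, 3.65 and 3.84 TPM in FlncgKO libraries and 5.39, 4.43 and 3.61 TPM in control libraries. Ddit3-201 accordingly made up 73.6% of the gene's summed TPM in FlncgKO and 51.0% in control hearts. Reads shared by overlapping transcripts were divided among them by estimation, which limits these shares.

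Sesn2, a leucine sensor that restrains the growth kinase complex mTORC1, was at 24.5, 49.2 and 23.1 CPM in FlncgKO hearts, against 11.9, 14.4 and 14.7 CPM in control hearts (log2 fold change 1.24, SE 0.33, edgeR adjusted p 0.11, DESeq2 adjusted p 0.000241). Ppp1r15a encodes GADD34, which brings a phosphatase to eIF2 and so ends the response. It was at 44.8, 39.8 and 35.9 CPM in FlncgKO hearts, against 25.5, 23.4 and 32.9 CPM in control hearts (log2 fold change 0.56, SE 0.14, edgeR adjusted p 0.090, DESeq2 adjusted p 0.0083). Ppp1r15a was the member whose highest library was FlncgKO replicate 1. The other 4 regulators passed neither test. Cebpb, a partner of ATF4 on DNA, had a log2 fold change of 1.06 (DESeq2 adjusted p 0.062) and Cebpg, another partner, one of 0.24, and both had groups that did not overlap. Atf5, a related transcription factor, and Nupr1, a stress-induced chromatin protein, had groups that overlapped, and Nupr1 had 62 counts over all libraries.

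**Figure D2:**
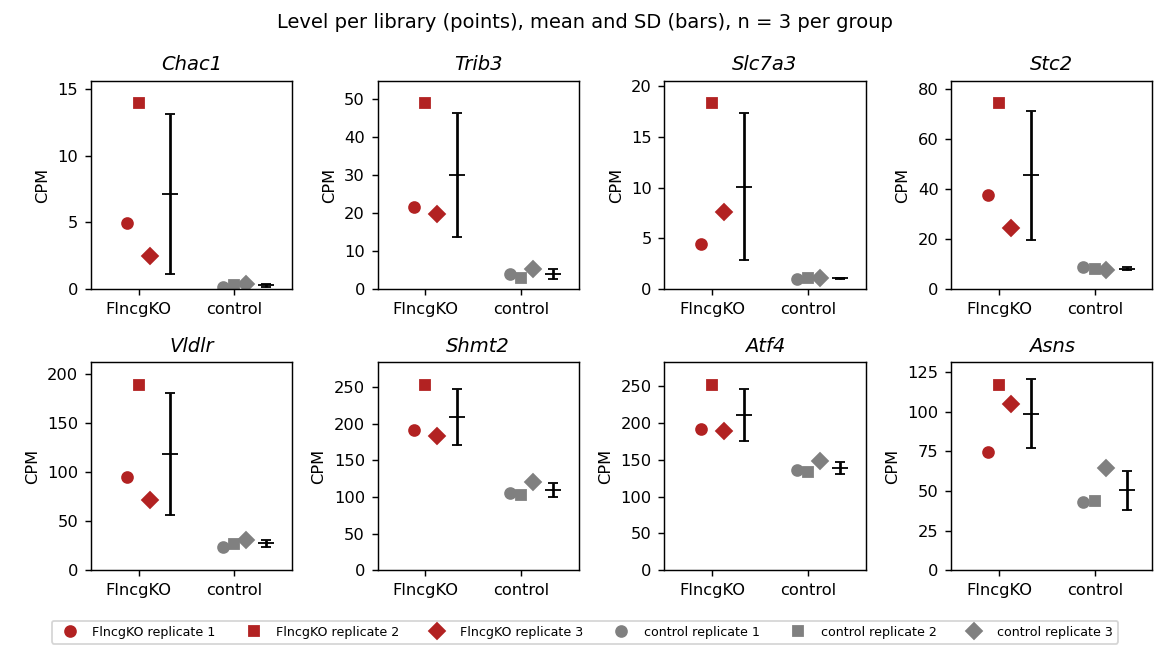
CPM of 8 genes in each library, with FlncgKO libraries (red) to the left of control libraries (grey), symbols marking the replicate number, and horizontal bars with whiskers giving the mean and SD of 3 libraries. Trib3 lies at 19.7 to 48.8 CPM in FlncgKO and 2.80 to 5.22 CPM in control hearts, and Shmt2 at 183 to 253 CPM in FlncgKO and 103 to 120 CPM in control hearts.

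All 7 serine and one-carbon genes had a positive log2 fold change (51.6% of all genes), with a median of 0.73. DESeq2 called 4 higher (6.19% of all genes): the mitochondrial folate enzymes Shmt2, Mthfd1l and Mthfd2, and Psat1 of serine synthesis. Shmt2, the mitochondrial enzyme that turns serine into glycine and a one-carbon unit, was at 192, 253 and 183 CPM in FlncgKO hearts, against 106, 103 and 120 CPM in control hearts. Every FlncgKO library was at least 1.5 times as high as every control library. The log2 fold change was 0.93 (SE 0.13, 1.91-fold), with an adjusted p of 0.039 in edgeR and 2.18e-10 in DESeq2, and Shmt2 ranked 113 of the 210 genes called by edgeR. The edgeR call was lost without control replicate 1, 2 or 3 (adjusted p 0.22, 0.20 and 0.066) and without FlncgKO replicate 1 (0.073), while DESeq2 kept it each time. Both transcripts of Shmt2 annotated as coding were above control in every FlncgKO library: Shmt2-201 had 96.3, 124 and 90.4 TPM in FlncgKO and 54.7, 53.4 and 62.5 TPM in control libraries, and Shmt2-206 had 20.3, 34.2 and 20.6 TPM in FlncgKO and 11.6, 10.9 and 11.3 TPM in control libraries.

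Mthfd1l, which releases formate in mitochondria, was at 120, 148 and 99.1 CPM in FlncgKO hearts, against 70.5, 69.9 and 74.9 CPM in control hearts (log2 fold change 0.77, SE 0.14, edgeR adjusted p 0.056, DESeq2 adjusted p 2.66e-06). Mthfd2, the mitochondrial methylene-tetrahydrofolate dehydrogenase, was at 73.9, 109 and 78.8 CPM in FlncgKO hearts, against 49.6, 52.5 and 55.7 CPM in control hearts (log2 fold change 0.73, SE 0.15, edgeR adjusted p 0.073, DESeq2 adjusted p 5.35e-05). In both genes the 3 FlncgKO libraries lay above the 3 control libraries. Aldh1l2, the mitochondrial formyl-tetrahydrofolate dehydrogenase, was at 10.9, 42.1 and 21.3 CPM in FlncgKO hearts and 7.82, 11.2 and 6.67 CPM in control hearts. Its groups overlapped, since FlncgKO replicate 1 fell just below control replicate 2, and its log2 fold change of 1.53 (SE 0.56) had an adjusted p of 0.20 in edgeR and 0.081 in DESeq2, and was 0.91 without FlncgKO replicate 2.

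The 3 enzymes that make serine from a glycolytic intermediate differed less. Psat1, the second enzyme of the route, was at 74.4, 102 and 100.5 CPM in FlncgKO hearts, against 66.5, 60.1 and 69.3 CPM in control hearts (log2 fold change 0.50, SE 0.13, edgeR adjusted p 0.093, DESeq2 adjusted p 0.0044). Phgdh, the first and committed enzyme, had a log2 fold change of 0.26 (SE 0.14, edgeR adjusted p 0.34), and Psph, the last enzyme, one of 0.05 (SE 0.11, edgeR adjusted p 0.81). Both had overlapping groups, and FlncgKO replicate 1 lay within the control range in both.

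The cytosolic counterparts and the glycine and methionine branches mostly lay at or below control levels. Of 18 further one-carbon, glycine and folate genes tested, 14 had a negative log2 fold change, and their median was -0.13. In 8 of the 18 all FlncgKO libraries were below all control libraries, a pattern found in 14.1% of all genes. Mat2a, which makes the methyl donor S-adenosylmethionine, was the only one that passed edgeR's threshold, at 254, 220 and 261 CPM in FlncgKO hearts, against 318, 328 and 316 CPM in control hearts (log2 fold change -0.39, SE 0.07, edgeR adjusted p 0.049, DESeq2 adjusted p 2.75e-05). Its edgeR call was lost when any library other than FlncgKO replicate 3 was left out (adjusted p 0.068 to 0.22). The following genes were picked out after their values were seen. Shmt1, the cytosolic form of Shmt2, was at 49.2, 41.7 and 42.7 CPM in FlncgKO hearts, against 53.7, 53.5 and 49.9 CPM in control hearts (log2 fold change -0.23, edgeR adjusted p 0.13). Aldh1l1, the cytosolic form of Aldh1l2, was the exception with a log2 fold change of 0.87 (SE 0.40, edgeR adjusted p 0.26), at 0.782 to 2.19 CPM in FlncgKO and 0.640 to 0.966 CPM in control hearts with groups that overlapped. The 4 genes of the glycine cleavage system, Gldc, Amt, Gcsh and Dld, had log2 fold changes of -0.27, -0.27, -0.17 and -0.14, each with groups that did not overlap and none past the adjusted threshold of edgeR or DESeq2.

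The balance of the mitochondrial and the cytosolic enzyme was compared on the per-length TPM scale. The ratio of Shmt2 to Shmt1 was 3.92, 5.98 and 3.96 in FlncgKO libraries, against 1.95, 1.68 and 2.28 in control libraries, a mean of 4.62 ± 1.18 in FlncgKO and 1.97 ± 0.30 in control hearts (SD, n = 3 each, two-sided exact permutation p = 0.1, the smallest possible). The ratio of Mthfd2 to the cytosolic Mthfd1 was 1.63, 2.66 and 1.82 in FlncgKO libraries, against 1.09, 1.15 and 1.20 in control libraries (two-sided exact permutation p = 0.1). Neither ratio overlapped between the groups. Shmt2 was already higher and Shmt1 lower in every FlncgKO library on the CPM scale, so the first ratio and its p are not separate evidence. The second ratio rests on Mthfd2, whose groups also did not overlap.

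**Figure D3:**
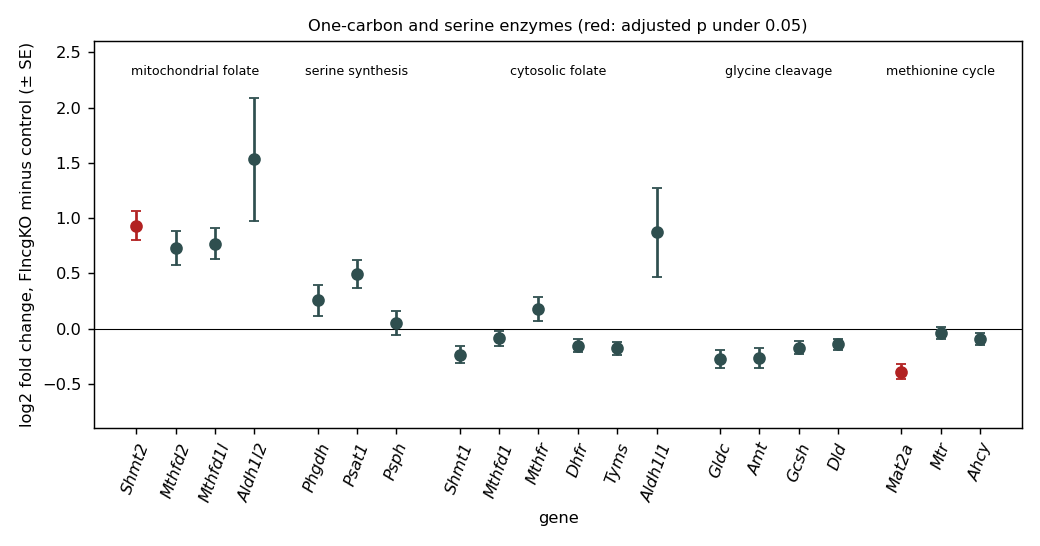
Log2 fold change (FlncgKO minus control) with its SE for one-carbon and serine enzymes grouped by branch, with genes past an edgeR adjusted p of 0.05 in red. The mitochondrial folate enzymes that are listed members lie between 0.73 and 1.53. Shmt1 and the glycine cleavage genes lie slightly below 0 and Mat2a at -0.39, with Aldh1l1 (0.87) the exception among the cytosolic genes. Mthfd2l and Slc25a32 of the comparison list are not shown.

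The promoter of Shmt2, the member that edgeR called, contained no TGATGNAA match in the RefSeq window of 250 bases before and 50 bases after its annotated start site. The 250 bases before the start, chr10:127522445-127522694 of GRCm38.p6 on the minus strand, are written along the gene for comparison with Chac1.
Shmt2 promoter: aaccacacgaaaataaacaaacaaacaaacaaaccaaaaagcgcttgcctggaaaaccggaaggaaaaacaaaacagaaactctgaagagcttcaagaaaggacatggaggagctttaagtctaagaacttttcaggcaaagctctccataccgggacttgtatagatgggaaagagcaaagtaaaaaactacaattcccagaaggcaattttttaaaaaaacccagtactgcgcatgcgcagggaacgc

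The 5 other enzymes, of amino acid synthesis and of mitochondria (Pck2), all had FlncgKO libraries above every control library (15.7% of all genes). All 5 were called higher by DESeq2 (6.19% of all genes), with none past edgeR's threshold. Asns, the asparagine synthetase and a classic target of the amino acid response, was at 74.4, 117 and 105 CPM in FlncgKO hearts, against 43.4, 43.5 and 64.4 CPM in control hearts. Control replicate 3 was above the other 2 controls and closest to the FlncgKO libraries. The log2 fold change was 0.97 (SE 0.24, 1.96-fold), with an adjusted p of 0.099 in edgeR and 3.47e-05 in DESeq2. Cth, which makes cysteine from cystathionine, was at 4.83, 7.5 and 4.28 CPM in FlncgKO hearts, against 2.2, 3.23 and 2.90 CPM in control hearts (log2 fold change 1.00, SE 0.26, edgeR adjusted p 0.092, DESeq2 adjusted p 0.031).

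The route to proline was higher at both of its listed steps. Aldh18a1, which starts proline synthesis from glutamate, was at 101, 125 and 107 CPM in FlncgKO hearts, against 83.7, 85.6 and 90.9 CPM in control hearts (log2 fold change 0.36, SE 0.08, edgeR adjusted p 0.078, DESeq2 adjusted p 0.0069). Pycr1, which completes it, was at 18.7, 31.7 and 22.5 CPM in FlncgKO hearts, against 14.4, 16.3 and 12.9 CPM in control hearts (log2 fold change 0.74, SE 0.20, edgeR adjusted p 0.10, DESeq2 adjusted p 0.0087). Pck2, the mitochondrial phosphoenolpyruvate carboxykinase, was at 24.9, 50.0 and 32.3 CPM in FlncgKO hearts, against 20.2, 22.6 and 19.2 CPM in control hearts (log2 fold change 0.79, SE 0.26, edgeR adjusted p 0.16, DESeq2 adjusted p 0.011). The retained-intron transcript Pck2-210 held 32.3% of the summed TPM of Pck2 in FlncgKO and 18.2% in control hearts. The coding transcript Pck2-201 held 29.7% in FlncgKO and 17.25% in control hearts. All 5 enzymes were highest in FlncgKO replicate 2.

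Of the 4 enzymes of this group with a promoter in the table, 3 held the motif, on the same terms as above. The Asns match is 23 bases before the start site and on the gene's strand, at chr6:7693214-7693243. The Pycr1 match is 103 bases before the start on the gene's strand, at chr11:120643833-120643862, and the Pck2 match 103 bases before the start on the opposite strand, at chr14:55540152-55540181.
Asns: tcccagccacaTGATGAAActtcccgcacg
Pycr1: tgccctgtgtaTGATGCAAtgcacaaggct
Pck2: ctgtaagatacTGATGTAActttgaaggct

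All 5 amino acid transporters had FlncgKO libraries above every control library (15.7% of all genes), and 4 were called higher by DESeq2 (6.19% of all genes). Slc7a3, a carrier of cationic amino acids encoded on the X chromosome, was at 4.43, 18.3 and 7.56 CPM in FlncgKO hearts, against 1.01, 1.11 and 1.06 CPM in control hearts. The control libraries were nearly identical, while the FlncgKO libraries spread over a 4-fold range. The log2 fold change was 3.25 (SE 0.57, 9.49-fold), with an adjusted p of 0.063 in edgeR and 5.58e-09 in DESeq2, and it was 2.49 without FlncgKO replicate 2. Slc7a1, the widely expressed carrier of the same amino acids, was at 128, 179 and 129 CPM in FlncgKO hearts, against 99.2, 105 and 94.7 CPM in control hearts (log2 fold change 0.54, SE 0.14, edgeR adjusted p 0.094, DESeq2 adjusted p 0.0016).

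Slc7a5 and Slc3a2 encode the 2 chains of the leucine transporter LAT1-CD98. Slc7a5, the transporting chain, was at 71.3, 111 and 80.9 CPM in FlncgKO hearts, against 50.5, 48.5 and 50.9 CPM in control hearts (log2 fold change 0.81, SE 0.16, edgeR adjusted p 0.069, DESeq2 adjusted p 1.19e-05). Slc3a2, the shared heavy chain, was at 73.1, 98.3 and 81.0 CPM in FlncgKO hearts, against 62.3, 59.1 and 57.0 CPM in control hearts (log2 fold change 0.50, SE 0.11, edgeR adjusted p 0.068, DESeq2 adjusted p 0.0011). On the TPM scale the ratio of Slc7a5 to Slc3a2 was 0.503, 0.542 and 0.511 in FlncgKO and 0.437, 0.430 and 0.456 in control libraries, without overlap (two-sided exact permutation p = 0.1).

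Slc7a11, the cystine importer that supplies glutathione synthesis, was at 2.68, 6.31 and 2.14 CPM in FlncgKO hearts, against 1.51, 1.5 and 1.79 CPM in control hearts. Its log2 fold change of 1.22 (SE 0.41) did not pass either test (adjusted p 0.15 in edgeR and 0.088 in DESeq2), and it was 0.59 without FlncgKO replicate 2. A retained-intron transcript held 47.0% of the gene's summed TPM in FlncgKO hearts and 75.7% in control hearts. The coding transcript Slc7a11-201 had 0.383, 1.21 and 0.310 TPM in FlncgKO libraries, against 0.165, 0.165 and 0.199 TPM in control libraries. Its promoter held 2 overlapping windows with the motif, at chr3:50443642-50443671 and chr3:50443661-50443690, 47 bases before the start on the opposite strand and 66 bases before it on the gene's strand.
Slc7a11, nearer the start: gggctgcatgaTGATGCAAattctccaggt
Slc7a11, farther from the start: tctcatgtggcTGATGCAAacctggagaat

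Other amino acid transporters did not move as a group. Of 18 tested, 12 were positive (51.6% of all genes), and the median log2 fold change was 0.04. DESeq2 called 2 higher (6.19% of all genes) and 1 lower (2.26%). The 2 higher ones, named after their values were seen, were the glutamine carrier Slc38a3 (log2 fold change 1.17, edgeR adjusted p 0.087) and the taurine carrier Slc6a6 (0.30, edgeR adjusted p 0.066). Slc1a3, a glutamate and aspartate carrier, was called lower by edgeR, at 43.1, 44.6 and 42.1 CPM in FlncgKO hearts, against 66.5, 58.7 and 55.4 CPM in control hearts (log2 fold change -0.48, SE 0.08, edgeR adjusted p 0.039, DESeq2 adjusted p 6.89e-05). That edgeR call was lost without control replicate 1 or 2, or FlncgKO replicate 1 or 2 (adjusted p 0.20, 0.19, 0.080 and 0.090).

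Of the secreted and surface products, Stc2 and Vldlr were among the members with the largest differences. Stc2, which encodes a secreted glycoprotein induced by ATF4, was at 37.7, 74.4 and 24.5 CPM in FlncgKO hearts, against 8.69, 8.11 and 7.54 CPM in control hearts (log2 fold change 2.49, SE 0.46, edgeR adjusted p 0.076, DESeq2 adjusted p 1.49e-05). Vldlr, the very low density lipoprotein receptor, was at 95.3, 189 and 71.4 CPM in FlncgKO hearts, against 24.0, 27.2 and 31.3 CPM in control hearts (log2 fold change 2.11, SE 0.42, edgeR adjusted p 0.085, DESeq2 adjusted p 0.000166). Neither gene overlapped between the groups, and both were highest in FlncgKO replicate 2. Without that library their log2 fold changes were 1.94 for Stc2 and 1.6 for Vldlr, each under 4-fold. Gdf15, a circulating hormone often used as a marker of this response, was not detectably changed at this depth. It was below the count filter with 30 counts in all, at 0.0894, 0.529 and 0.365 CPM in FlncgKO and 0.229, 0.0965 and 0.0966 CPM in control hearts. The Vldlr match to the motif is 200 bases before the start, on the opposite strand, at chr19:27216809-27216838.
Vldlr: gctaggagcgcTGATGCAActattgctgct

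The 10 cytosolic tRNA synthetases, which load amino acids on their tRNAs, differed far less, with log2 fold changes between -0.15 and 0.45 and a median of 0.22. In 8 of the 10 all FlncgKO libraries were above all control libraries (15.7% of all genes). DESeq2 called 5 higher (6.19% of all genes), and none passed edgeR. Cars, for cysteine, was at 59.3, 79.9 and 61.4 CPM in FlncgKO hearts, against 46.6, 46.9 and 53.0 CPM in control hearts (log2 fold change 0.45, SE 0.12, edgeR adjusted p 0.10, DESeq2 adjusted p 0.014). Sars, for serine, was at 133, 168 and 138 CPM in FlncgKO hearts, against 101, 104 and 120 CPM in control hearts (log2 fold change 0.44, SE 0.11, edgeR adjusted p 0.083, DESeq2 adjusted p 0.0035). In both genes all FlncgKO libraries were above all control libraries.

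Nars, for asparagine, was at 201, 226 and 218 CPM in FlncgKO hearts, against 162, 158 and 200.3 CPM in control hearts (log2 fold change 0.31, DESeq2 adjusted p 0.044), so that FlncgKO replicate 1 and control replicate 3 almost met. Iars, for isoleucine, was at 255, 294 and 249 CPM in FlncgKO hearts, against 213, 217 and 221 CPM in control hearts (log2 fold change 0.29, SE 0.07, edgeR adjusted p 0.080, DESeq2 adjusted p 0.0084). Gars, for glycine, was at 226, 286 and 252 CPM in FlncgKO hearts, against 207, 211 and 211 CPM in control hearts (log2 fold change 0.28, DESeq2 adjusted p 0.036). Eprs, Yars, Mars and Aars, for glutamate and proline, tyrosine, methionine and alanine, had log2 fold changes of 0.16, 0.14, 0.11 and 0.09 and passed neither test. Wars, for tryptophan, was the only member with a negative value (log2 fold change -0.15, SE 0.10), and it was lowest in FlncgKO replicate 2, the library in which most other members were highest.

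Synthetases outside the list were centred near 0, but which synthetases were listed was decided with earlier results of these data known. The median log2 fold change was 0.02 over the 13 other cytosolic synthetase and scaffold genes. None was called by edgeR and 1, Dars, was called higher by DESeq2 (6.19% of all genes). Dars, for aspartate, was at 138, 150 and 124 CPM in FlncgKO hearts, against 114, 111 and 119 CPM in control hearts (log2 fold change 0.26, edgeR adjusted p 0.11, DESeq2 adjusted p 0.049). Aimp2, a scaffold of the multi-synthetase complex, was at 49.2, 48.6 and 44.4 CPM in FlncgKO hearts, against 41.7, 41.5 and 40.6 CPM in control hearts (log2 fold change 0.20, edgeR adjusted p 0.11). The 17 mitochondrial synthetases, which serve translation inside mitochondria, had a median of -0.03 and no call by either tool, and 1 of them was lower and 0 higher at an unadjusted edgeR p under 0.05. The 2 with the smallest p were Mars2, at 25.7, 21.1 and 25.9 CPM in FlncgKO hearts against 29.9, 29.1 and 26.4 CPM in control hearts (log2 fold change -0.23), and Cars2, at 22.1, 21.5 and 20.5 CPM in FlncgKO hearts against 18.8, 20.5 and 18.1 CPM in control hearts (log2 fold change 0.16).

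**Figure D4:**
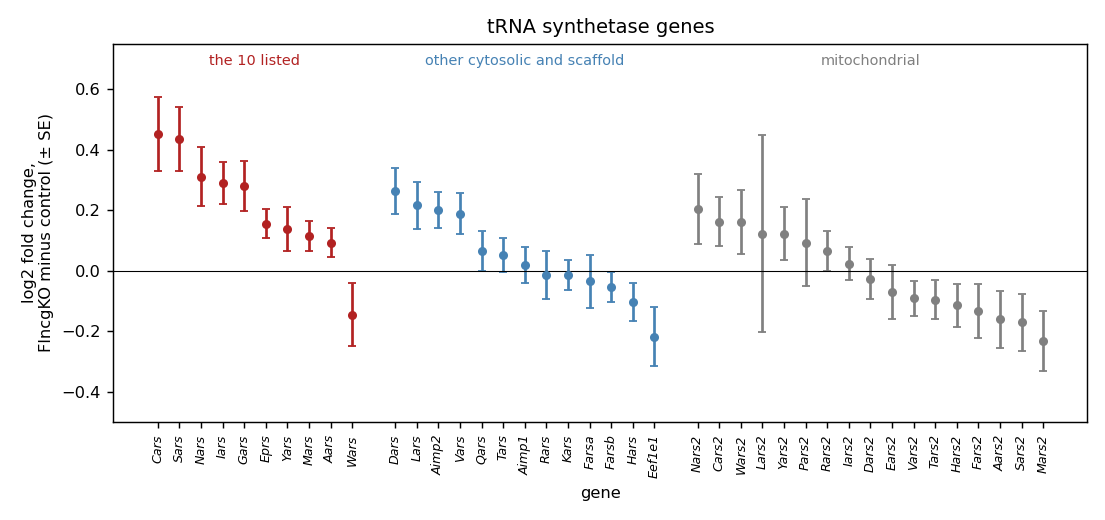
Log2 fold change (FlncgKO minus control) with its SE for the 10 listed cytosolic tRNA synthetases (red), 13 other cytosolic synthetase and scaffold genes (blue) and 17 mitochondrial synthetases (grey), each sorted from high to low. The medians are 0.22, 0.02 and -0.03, and 9 of the 10 listed genes lie above 0. The listed genes were chosen with earlier results of these data known.

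The machinery upstream of ATF4 did not differ as a group at the mRNA level. The 14 genes for the eIF2 kinases, the subunits of eIF2 and of its exchange factor eIF2B, and the related regulators Ppp1r15b and Impact had log2 fold changes from -0.24 to 0.35 with a median of -0.01. The kinase genes Eif2ak3 (PERK) and Eif2ak4 (GCN2) had log2 fold changes of 0.09 and 0.09, Eif2ak1 (HRI) 0.05 and Eif2ak2 (PKR) -0.22, and none of the 4 passed either test. Kinase activity and eIF2 phosphorylation were not measured. Eif2s3x, the gamma subunit of eIF2, was the only gene of the 14 past edgeR's threshold, at 373, 412 and 430 CPM in FlncgKO hearts, against 311, 314 and 326 CPM in control hearts (log2 fold change 0.35, SE 0.06, edgeR adjusted p 0.044). It is X-linked and has a partner on the Y chromosome. With the level of Y-linked genes as a covariate its log2 fold change was 0.21 with no call (adjusted p 0.55 in edgeR and 0.49 in DESeq2). With that covariate edgeR called 0 of all 16048 genes higher and 0 lower, so the lost edgeR call was not particular to this gene. The part of sex in the level of Eif2s3x was not tested. Its edgeR call was lost when any one control library was left out (adjusted p 0.22, 0.21 and 0.078) and without FlncgKO replicate 1 or 2 (0.055 and 0.12).

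Other known ATF4 targets outside the list showed the same direction, although these genes too were chosen with earlier results of these data known. Of 19 tested, 18 had a positive log2 fold change (51.6% of all genes), and the median was 0.58. None passed edgeR's threshold and 10 were called higher by DESeq2 (6.19% of all genes). At an unadjusted edgeR p under 0.05, 13 were higher (13.3% of all genes) and 0 lower (8.84%). All FlncgKO libraries were above all control libraries in 13 (15.7% of all genes) and below them in 1 (14.1%). Eif4ebp1, a repressor of cap-dependent translation, was at 109, 140 and 110 CPM in FlncgKO hearts, against 81.7, 74.5 and 83.3 CPM in control hearts (log2 fold change 0.58, SE 0.11, edgeR adjusted p 0.0501, DESeq2 adjusted p 3.56e-05). Vegfa, the vascular growth factor, which is also a target of the hypoxia factors, was at 229, 355 and 211 CPM in FlncgKO hearts, against 117, 112 and 131 CPM in control hearts (log2 fold change 1.14, SE 0.22, edgeR adjusted p 0.073, DESeq2 adjusted p 0.00045). In both genes FlncgKO replicate 2 was again the highest library. Fgf21, a hormone induced by ATF4 in liver and muscle, had 0 counts in all libraries.

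Across the list, the motif was found in 12 of the 32 members with a RefSeq promoter, or 37.5%, and in 4.51% of the 27025 genes with one. The members were listed as genes of the ATF4 pathway, so this share is descriptive. Among the other ATF4 targets the motif was found in 5 of 16, or 31.2%, and in 0% to 11.1% of the remaining comparison lists. For 10 of the 12 members, bases after the annotated start were found near the start of a GENCODE M21 transcript of the gene. Both strands of the 300-base windows were searched for TGATGNAA, and a match is a string of letters, not a demonstration of binding. Besides the members shown above, it was found in Nupr1 and in the synthetase genes Gars, Aars, Iars and Yars. By role it was present in 3 of 10 regulators, 4 of 6 synthetases and 0 of 6 serine and one-carbon genes. The 12 members with a match had a median log2 fold change of 0.77, from 0.09 to 4.62, and 8 were called higher by DESeq2 (6.19% of all genes). The 19 tested members without one had a median of 0.54, from 0.05 to 2.49, and 13 were called by DESeq2. Aars, with 2 matches, had one of the smallest differences of the list, and Stc2, with none, one of the largest.

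The FlncgKO libraries did not show the pattern equally. FlncgKO replicate 2 was the highest FlncgKO library for 33 of the 39 tested members, against 34.4% of all genes. The median deviation of the members from the control mean, on the log2(CPM + 0.5) scale, was 0.36, 0.84 and 0.46 in FlncgKO replicates 1, 2 and 3, against -0.04, -0.04 and 0.07 in control replicates 1, 2 and 3. All 3 FlncgKO medians were above all control medians. The median coefficient of variation of the members was 19.9% among FlncgKO and 8.23% among control libraries, where all genes had 10.1% in FlncgKO and 7.45% in control libraries, and it was larger among FlncgKO libraries in 32 members. Without FlncgKO replicate 2 the members' median log2 fold change was 0.47, 5 were called higher by edgeR and 17 by DESeq2.

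Markers of other cell types and of sex also differed between the libraries. The 10 platelet and megakaryocyte markers summed to 1162, 719 and 227 CPM in FlncgKO libraries, against 93.4, 72.1 and 107 CPM in control libraries, and all 10 were higher in every FlncgKO library. The 8 surface ectoderm and epithelium markers, 7 of them tested, summed to 444, 597 and 711 CPM in FlncgKO libraries, against 237, 179 and 394 CPM in control libraries. The 10 erythroid markers summed to 8257, 7360 and 11490 CPM in FlncgKO libraries, against 3194, 3145 and 8372 CPM in control libraries. The platelet sum was highest in FlncgKO replicate 1 and the ectoderm and erythroid sums in FlncgKO replicate 3, whereas most members were highest in FlncgKO replicate 2. The 9 endothelial and endocardial markers had median deviations of 0.16, 0.39 and 0.07 in FlncgKO libraries, against -0.10, 0.15 and -0.03 in control libraries, and 7 of the 9 were highest in FlncgKO replicate 2, as most members were. The 9 macrophage and leukocyte markers, 6 of them tested and 3 called higher by edgeR, summed to 41.6, 30.4 and 37.1 CPM in FlncgKO libraries, against 6.68, 5.41 and 15.3 CPM in control libraries. Apart from the fit with platelet markers given below, the part of these cells in the members' levels was not tested. Mitochondrially encoded transcripts made up 2.33%, 2.01% and 2.58% of counts in FlncgKO libraries, against 3.31%, 3.96% and 3.08% in control libraries.

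The 4 Y-linked genes summed to 80.8, 3.88 and 4.28 CPM in FlncgKO libraries, against 117, 140 and 122 CPM in control libraries, and Xist was at 807, 1609 and 1290 CPM in FlncgKO and 290, 301 and 337 CPM in control libraries. Every control library and FlncgKO replicate 1 had both Y-linked and Xist transcripts, so these libraries held RNA from embryos of both sexes. The mix of sexes thus differed between the groups and, within FlncgKO, set replicate 1 apart. With the Y-linked level as a covariate the members' median log2 fold change was 0.27, 34 of 39 were positive, and 0 were called by edgeR, with 8 higher at an unadjusted p under 0.05. Under that covariate DESeq2 called Trib3, Chac1 and Shmt2, and the edgeR log2 fold changes of Chac1, Slc7a3 and Aldh1l2 were 3.95, 1.80 and 0.11. With the platelet marker level as a covariate the median was 0.64 and all but 1 of the members were positive, with 0 called by edgeR and 4 higher at an unadjusted p under 0.05. Chac1, Trib3, Stc2, Vldlr and Slc7a11 then had log2 fold changes of 2.6, 2.11, 1.35, 1.18 and 0.27. Over all genes edgeR called 0 higher and 0 lower with either covariate. Genotype, sex and blood content were partly aligned over the 6 libraries, and their parts cannot be told apart.

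**Figure D5:**
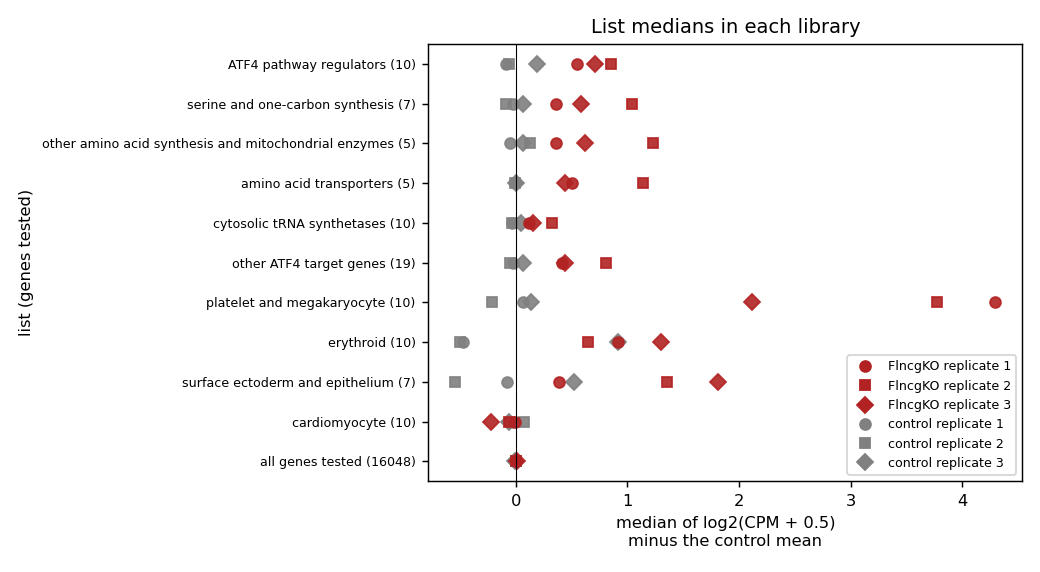
For each list, every point gives one library's median deviation from the control mean on the log2(CPM + 0.5) scale, with FlncgKO in red and control in grey and the number of genes in brackets. The stress response and amino acid lists are farthest right in FlncgKO replicate 2 (red squares), the platelet list in FlncgKO replicate 1 (circles), and the erythroid and ectoderm lists in FlncgKO replicate 3 (diamonds). Among the lists not shown, the endothelial and endocardial list is also highest in FlncgKO replicate 2 (0.16, 0.39 and 0.07 in replicates 1, 2 and 3). The macrophage and leukocyte list, also not shown, is highest in FlncgKO replicate 1 (2.45, 1.95 and 1.38).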

How the data were processed

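RNA-seq was made by the study from E9.5 hearts with a stranded poly(A) kit and sequenced on a NovaSeq. The deposited files hold, per transcript, expected counts (estimated reads) and TPM, which the authors made with salmon on GENCODE M22 (GRCm38.p6), 1 file per library. No salmon version is given in the sources used here, and the submitters' processing notes name DESeq2 1.22.2. Estimated counts were summed per gene, with gene symbols from GENCODE M21, and rounded. Transcripts without a gene in that table held 0.108% to 0.131% of counts and were left out. Ddit3 had 2 gene identifiers, and the one with counts was used.

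FlncgKO and control libraries, grouped by their titles, were compared with edgeR 4.0.16 in R 4.3.3 (TMM scaling, filterByExpr with a minimum of 10 counts, robust quasi-likelihood test, Benjamini-Hochberg adjustment over all genes tested, threshold 0.05) and, as an alternative, DESeq2 1.42.0. CPM are TMM-scaled. No covariate was used, as in the study. Levels were compared between genes only on the deposited TPM, summed per gene. The fits were tested on simulated data.

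The members and lists were chosen with earlier results of these data known. Per-library values are given for members past either test, for the 3 smallest edgeR p in each group, and for Atf4, Ddit3, Asns and Gdf15. For the comparison lists they are given for genes past edgeR's threshold, otherwise for the 2 with the smallest p. Aldh1l2, Slc7a11, Eif2s1, Shmt1 and Aldh1l1 fall outside this rule and were added after their values were seen. Promoters are RefSeq windows of GRCm38.p6. Aldh1l2, Cars, Cth, Mars, Nars, Slc7a3, Slc7a5 and Wars had no entry. Alternatives changed the test, scaling, filter, length offsets, dispersion, covariates, replicate block and libraries. No 2 libraries were near copies of each other.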

Additional observations from a re-analysis of the deposited data

How the results depend on the processing

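The direction of the members was stable and the number past a threshold was not. Of the 39 tested members, 34 or more kept a positive log2 fold change under every alternative run that tested all 39, and the number lower was 0 in each. The number of members higher, 1 with edgeR, was 26 with DESeq2, 4 with no filter on low counts, 2 with at least 10 counts in every library, 0 with transcript length offsets, 6 without robust shrinkage, 0 with the Y-linked or the platelet covariate, 3 with DESeq2 and the Y-linked covariate, and 0 to 11 with 1 library left out (14 to 26 with DESeq2). The median log2 fold change of the members, 0.56, became 0.27 with the Y-linked covariate (0.26 with DESeq2) and 0.47 to 0.66 with 1 library left out (0.46 to 0.66 with DESeq2). With the replicate number as a block, 8 members were called, Shmt2 not among them (adjusted p 0.052). Same-numbered libraries deviated together with correlations of 0.043, 0.57 and 0.61. Each FlncgKO library correlated best with the control of its own number, replicate 1 only narrowly (0.031 with control replicate 2). Control replicate 1 correlated best with FlncgKO replicate 2 (0.19). Whether the numbers mark litters was not given, so the main fit did not pair them, and whether the libraries were paired stayed unknown. Over all genes, 170 were higher and 40 lower with edgeR. With DESeq2 the counts were 987 higher and 360 lower, with no filter 392 and 162, with length offsets 63 and 13, with the block 512 and 120, and with either covariate 0 and 0 (unadjusted p under 0.05: 900 and 385 with the Y-linked, 797 and 463 with the platelet covariate). With 10 counts in every library 62 were lower, and with DESeq2 and the Y-linked covariate 22. With 1 library left out the counts ran from 1 to 989 higher and from 0 to 283 lower with edgeR, and from 520 to 1293 and 115 to 512 with DESeq2. Directions turned for members that passed neither test: with the Y-linked covariate Atf5 (-0.34), Phgdh (-0.17), Psph (-0.061, and -0.063 with DESeq2) and Yars (-0.0058, and -0.0078 with DESeq2), and with 1 library left out Nupr1 (-0.21 to 2.88 with edgeR, -0.22 to 3.00 with DESeq2) and Psph (-0.027 to 0.15). The platelet covariate and the DESeq2 fits with a covariate or without a library were chosen after seeing the data. The cause of these changes was not tested. Genes with few counts, Gdf15 and Nupr1, were limited by depth.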
